A study of Mus musculus with 12 samples.

Results

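Dppa2, Dppa3, Dppa4 and Dppa5a are 4 mouse genes of the developmental pluripotency associated (Dppa) group, which were named together because early embryos and embryonic stem cells express them. They were taken as all gene-directed probes whose RefSeq transcript accession maps to one of these symbols, and 7 probes met that rule, 2 for Dppa2, 1 for Dppa3, 3 for Dppa4 and 1 for Dppa5a. These are 4 of 36983 genes on the array, of which 24457 were bright enough to be tested, and all 7 probes were among those bright enough. The rule goes by gene name and uses no level, but the group was picked with its pattern in these arrays already known, and the probe with the highest mean level stands for a gene with several.

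The Dppa genes share a name more than a mechanism. Dppa3, also called Stella or PGC7, is a maternal protein that protects the methylation of the maternal genome in the zygote and that keeps the maintenance factor Uhrf1 away from chromatin. Dppa2 and Dppa4 are a pair of SAP-domain proteins that bind chromatin together, hold developmental promoters open to later activation and, in mouse embryonic stem cells, are needed for the transcripts of the 2-cell embryo such as Zscan4. Dppa5a, also called Esg1, is an RNA-binding protein with a KH domain that is abundant in pluripotent cells.

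The 12 single-colour arrays carried RNA of mouse embryonic stem cells in 4 groups of 3, which are Nat1-null 2i+LIF, Nat1-null LIF, wild-type 2i+LIF and wild-type LIF. The deposited array names call the wild-type cells RF8 and the mutant cells NAT1 KO. LIF is the cytokine that sustains mouse embryonic stem cells, so every group received it, and 2i in its usual meaning is a pair of inhibitors of the kinases MEK and GSK3, although the labels do not name the compounds. Nat1 is taken here to be the translation initiation factor Eif4g2, not the acetyltransferase that shares the symbol. All cells grew on gelatin-coated plates, and the labels do not say how the null allele was made, how many clones were used or whether replicates were separate cultures, so p-values measure only the spread between these samples. The study asked how 2i acts in cells with and without Nat1.

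Levels are given as the log2 of the signal over the 75th percentile of the same array, so a difference of 1 is a 2-fold change. The Eif4g2 probe averaged 1.31 ± 0.10 in Nat1-null 2i+LIF, 1.28 ± 0.04 in Nat1-null LIF, 4.20 ± 0.10 in wild-type 2i+LIF and 4.49 ± 0.05 in wild-type LIF (SD, n = 3 each), so the targeted gene was lower in the null cells, 7.42-fold in 2i+LIF and 9.28-fold in LIF. Whether its probe lies in the deleted part is not given in the sources used here. Between 49.8% and 66.3% of the gene-directed spots of an array were well above background, replicate arrays correlated at 0.988 or more, and the number of arrays limits the precision. All 10 embryonic stem cell markers were well above background on every array. The Nat1-null arrays shared 1 slide, and each wild-type group had a slide of its own, so genotype, and medium in wild-type cells, cannot be told apart from slide. The 2i comparison in Nat1-null cells lies within 1 slide, where LIF replicate 3 and the 3 arrays in 2i+LIF share the second row of arrays and LIF replicates 1 and 2 lie in the first.

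Of the 4 genes, 2 were lower and 2 higher with 2i in Nat1-null cells, 3 were lower and 1 was higher with 2i in wild-type cells, and the gene that changed sides was Dppa3. Between genotypes, 1 gene was lower and 1 higher in Nat1-null cells in LIF, and none passed the test in 2i+LIF. A gene counts as changed at an adjusted p below 0.05 from a limma fit across all 24457 genes. Of all genes, 37.1% passed for 2i in Nat1-null cells (21.4% higher and 15.8% lower) and 62.2% for 2i in wild-type cells (35% higher and 27.2% lower). For Nat1 loss 66.8% passed in LIF (33.9% higher and 32.9% lower) and 43.6% in 2i+LIF (21% higher and 22.6% lower). For the dependence of the 2i difference on genotype, 49.7% passed (23.6% higher and 26.2% lower). Against those shares, passing the test is common on these arrays, and the 4, 4, 2, 0 and 2 Dppa genes that passed in these 5 comparisons say little by their number. For Nat1 loss in 2i+LIF the unadjusted p-values of the limma fit ran between 0.063 and 0.20, so 0 of 4 passed at an unadjusted p below 0.05 too.

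**Figure D1:**
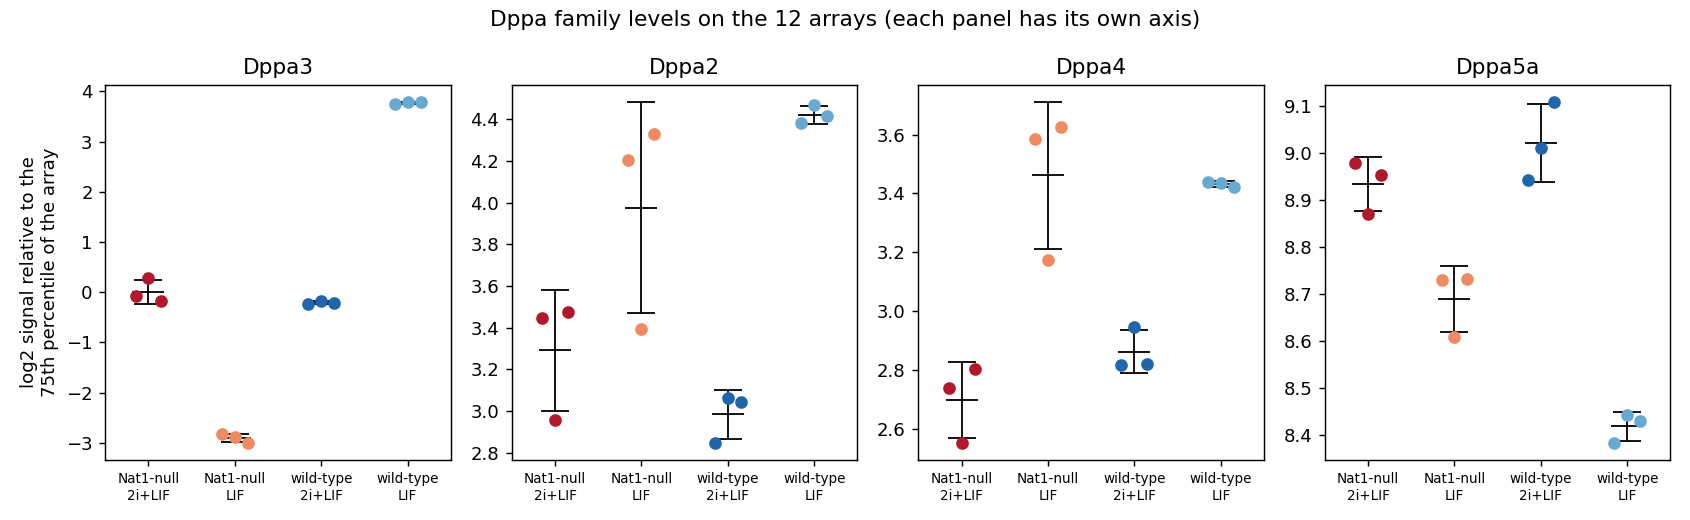
Levels of Dppa3, Dppa2, Dppa4 and Dppa5a on each of the 12 arrays, as log2 of the signal over the array's 75th percentile, with points for arrays and bars for mean ± SD of the 3 arrays of a group; each panel has its own axis. Dppa3 spans -3.00 to 3.78 with no overlap between Nat1-null LIF and any other group, while the lowest Nat1-null array for Dppa2 and for Dppa4 is replicate 2 in both media.

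Dppa3 was the member with the widest range. Its levels on replicates 1 to 3 were -0.08, 0.28 and -0.17 in Nat1-null 2i+LIF, -2.83, -2.89 and -3.00 in Nat1-null LIF, -0.23, -0.18 and -0.21 in wild-type 2i+LIF, and 3.76, 3.78 and 3.78 in wild-type LIF. Wild-type LIF was highest and Nat1-null LIF lowest, with no overlap between either and any other group, and the arrays in 2i+LIF lay between them. In scanner units the mean signals were 777 in Nat1-null 2i+LIF, 116 in Nat1-null LIF, 567 in wild-type 2i+LIF and 13223 in wild-type LIF. The probe was well above background on all 12 arrays, so the low level in Nat1-null LIF is a measured level and not a bound.

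In LIF, loss of Nat1 went with a 103-fold lower Dppa3 signal, a log2 difference of -6.68 ± 0.10 (SE, limma adjusted p = 1.6e-10). It was the 37th lowest value of 24457 genes in that comparison. With 2i, Dppa3 rose by 2.92 ± 0.10 in Nat1-null cells (SE, limma adjusted p = 1.3e-07), 7.56-fold, and fell by 3.98 ± 0.10 in wild-type cells (SE, limma adjusted p = 4.7e-09), 15.8-fold. The same addition to the medium thus went with opposite changes, and the 2i difference in Nat1-null cells exceeded that in wild-type cells by 6.90 ± 0.14 on the log2 scale (SE, limma adjusted p = 6.8e-09). In 2i+LIF the genotypes differed by 0.21, with a 95% confidence interval of -0.01 to 0.44 (limma adjusted p = 0.12), and without Nat1-null 2i+LIF replicate 3 that difference was 0.31 (adjusted p = 0.038). In LIF the genotypes lay at opposite ends of the range of Dppa3, and in 2i+LIF both lay near its middle. Within the second row of the Nat1-null slide, where LIF is a single array, the rise with 2i was 3.01 (limma adjusted p = 0.013). That p and the others from that row take the spread from the other Nat1-null arrays, on the assumption that the lone LIF array varies like them.

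**Figure D2:**
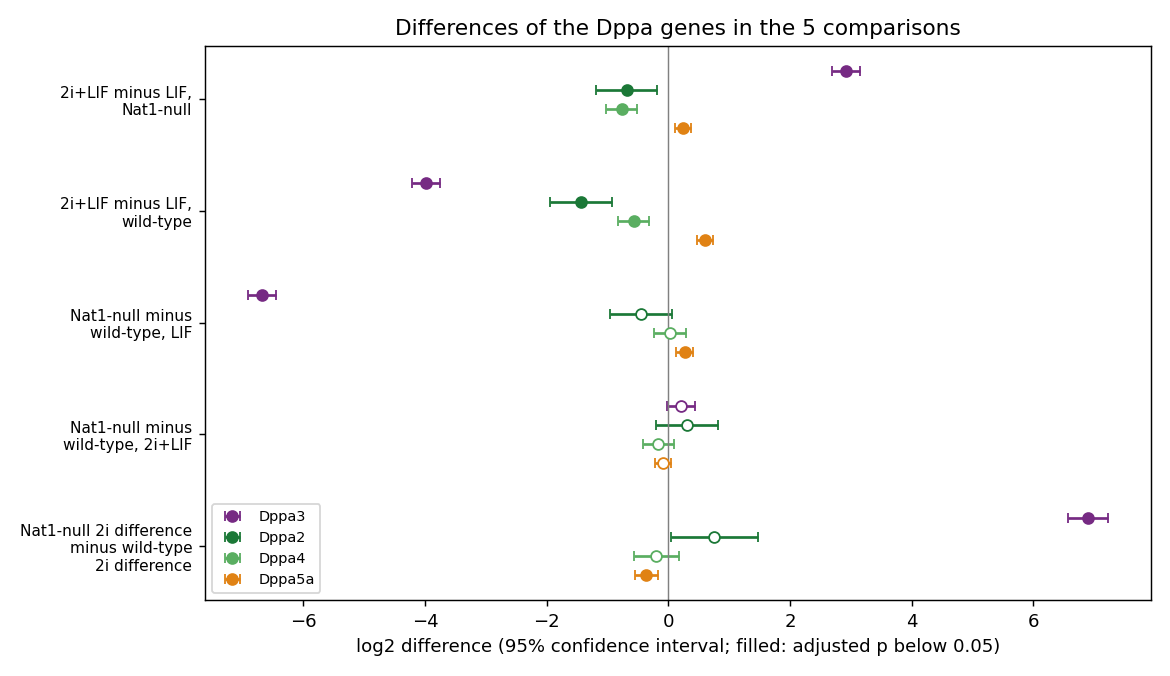
Log2 differences of the 4 Dppa genes in the 5 comparisons, with 95% confidence intervals from the limma fit; filled points have an adjusted p below 0.05. The Dppa3 points lie at -6.68, -3.98, 2.92 and 6.90 in 4 of the comparisons and at 0.21 between genotypes in 2i+LIF, while all points of the other genes lie between -1.44 and 0.75.

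The 2i comparisons of the genotypes share no arrays. Across all genes, 1202 of 24457 (4.91%) were, like Dppa3, higher with 2i in Nat1-null cells and lower with 2i in wild-type cells, and 227 (0.928%) were so by at least 2-fold in both. The other mixed direction, lower in Nat1-null and higher in wild-type cells, held 1224 genes, 137 of them at 2-fold. Changes in the same direction were more frequent among all calls, with 2630 genes higher in both genotypes and 1460 lower in both. At 2-fold in both genotypes, 203 genes were higher in both and 337 lower in both. The Nat1-null and wild-type values come from different slides, and each gene is counted from its own limma tests.

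Transcripts of fibroblasts and feeder cells moved with Dppa3 in wild-type LIF. The mean level of the 12 tested markers ran between -2.81 and -2.52 in Nat1-null 2i+LIF, -3.31 and -3.17 in Nat1-null LIF, -2.61 and -2.42 in wild-type 2i+LIF, and 0.92 and 1.20 in wild-type LIF. Between 8 and 10 of the 12 were well above background on Nat1-null arrays and 9 or 10 on wild-type 2i+LIF arrays, while all 12 were on wild-type LIF arrays. Dcn and Postn, genes of the fibroblast matrix, were well above background on 0 of the 6 Nat1-null arrays. With 2i, 4 of the 12 were higher and 1 lower in Nat1-null cells, and 1 was higher and 9 lower in wild-type cells. In LIF 11 were lower and 0 higher in Nat1-null cells. Over all genes 37.1%, 62.2% and 66.8% passed in these comparisons, in the same order. Acta2, the smooth muscle actin, averaged -2.05 ± 0.43, -3.32 ± 0.32, -1.76 ± 0.18 and 6.30 ± 0.07 in Nat1-null 2i+LIF, Nat1-null LIF, wild-type 2i+LIF and wild-type LIF (SD, n = 3 each). Its log2 difference with 2i in wild-type cells was -8.06, beyond the median of the 12 markers, -4.07, or -3.30 with bounds. The mean of the 10 embryonic stem cell markers moved with the groups too, between 4.58 and 4.71 in Nat1-null 2i+LIF, 4.87 and 5.15 in Nat1-null LIF, 4.44 and 4.53 in wild-type 2i+LIF, and 4.04 and 4.12 in wild-type LIF. Of the 10, 8 were higher and 2 lower in Nat1-null cells in LIF, where Dppa3 was lower. The mean of the 7 primitive endoderm markers lay between -3.73 and -2.42 on all arrays. The part of these marker differences in those of Dppa3 was not tested, and in bulk RNA fewer expressing cells and less RNA per cell cannot be told apart.

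Dppa2 and Dppa4 are adjacent genes on chromosome 16 (RefSeq, assembly GRCm38.p6), and both were lower with 2i in both genotypes. The main Dppa2 probe read 3.44, 2.96 and 3.48 in Nat1-null 2i+LIF, 4.20, 3.39 and 4.33 in Nat1-null LIF, 2.85, 3.06 and 3.04 in wild-type 2i+LIF, and 4.38, 4.47 and 4.41 in wild-type LIF. The groups in LIF were the higher ones, but replicate 2 of Nat1-null LIF fell below replicates 1 and 3 of Nat1-null 2i+LIF, so the Nat1-null groups overlapped. The main Dppa4 probe read 2.74, 2.55 and 2.80 in Nat1-null 2i+LIF, 3.59, 3.17 and 3.62 in Nat1-null LIF, 2.82, 2.95 and 2.82 in wild-type 2i+LIF, and 3.44, 3.44 and 3.42 in wild-type LIF. For Dppa4 the media did not overlap in either genotype, and replicate 2 was again the lowest Nat1-null array in each medium.

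With 2i, Dppa2 fell by 0.68 ± 0.23 in Nat1-null cells (SE, limma adjusted p = 0.038), 1.61-fold, and by 1.44 ± 0.23 in wild-type cells (SE, adjusted p = 3.4e-04), 2.71-fold. Dppa4 fell by 0.76 ± 0.11 in Nat1-null cells (SE, limma adjusted p = 6.8e-04), 1.70-fold, and by 0.57 ± 0.11 in wild-type cells (SE, adjusted p = 0.0017), 1.48-fold, and that wild-type value was -1.14 without scaling between arrays, beside a median of -0.50 over all genes. The falls were not shown to depend on genotype: the 2i difference in Nat1-null minus that in wild-type cells was 0.75 for Dppa2 (95% confidence interval 0.04 to 1.47, limma adjusted p = 0.075) and -0.19 for Dppa4 (-0.56 to 0.17, adjusted p = 0.35). The Dppa2 fall in Nat1-null cells is the weakest of these calls, since it missed the threshold in 10 of 12 fits that left out 1 array, with values of -0.97 to -0.51 and adjusted p between 8.9e-04 and 0.13. Within the second row of the Nat1-null slide the differences were -1.04 for Dppa2 (adjusted p = 0.19) and -0.93 for Dppa4 (adjusted p = 0.075).

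Nat1 loss left both genes without a called change. In LIF the difference was -0.45 for Dppa2 (95% confidence interval -0.95 to 0.06, limma adjusted p = 0.11) and 0.029 for Dppa4 (-0.23 to 0.29, adjusted p = 0.83). In 2i+LIF it was 0.31 for Dppa2 (-0.20 to 0.81, limma adjusted p = 0.30) and -0.16 for Dppa4 (-0.42 to 0.09, adjusted p = 0.28). All 4 intervals lie within a 2-fold change in either direction. Without Nat1-null LIF replicate 3 the Dppa2 difference in LIF was -0.62 (adjusted p = 0.039) and that of Dppa4 was -0.052 (adjusted p = 0.73), so that call turned with a single array, as it did without scaling between arrays (-0.60) and with quantile normalization (-0.55), and the Dppa4 sign also turned without Nat1-null LIF replicate 1, at -0.033.

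The further probes of these genes fell with 2i too. The other Dppa2 probe fell by 0.58 in Nat1-null cells and by 1.17 in wild-type cells. The other Dppa4 probes, A_55_P2065549 and A_55_P2158607, fell by 0.78 and 0.86 in Nat1-null cells and by 0.41 and 0.41 in wild-type cells, and all 6 of these values had a limma adjusted p of 0.043 or less among 33286 probes. They disagreed on Nat1 loss in LIF, where A_55_P2158607 was higher in Nat1-null cells by 0.44 (adjusted p = 0.030) and A_55_P2065549 differed by 0.11 (adjusted p = 0.48), beside 0.029 for the main probe. What the probes of a gene target within the transcript was not used here.

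**Figure D3:**
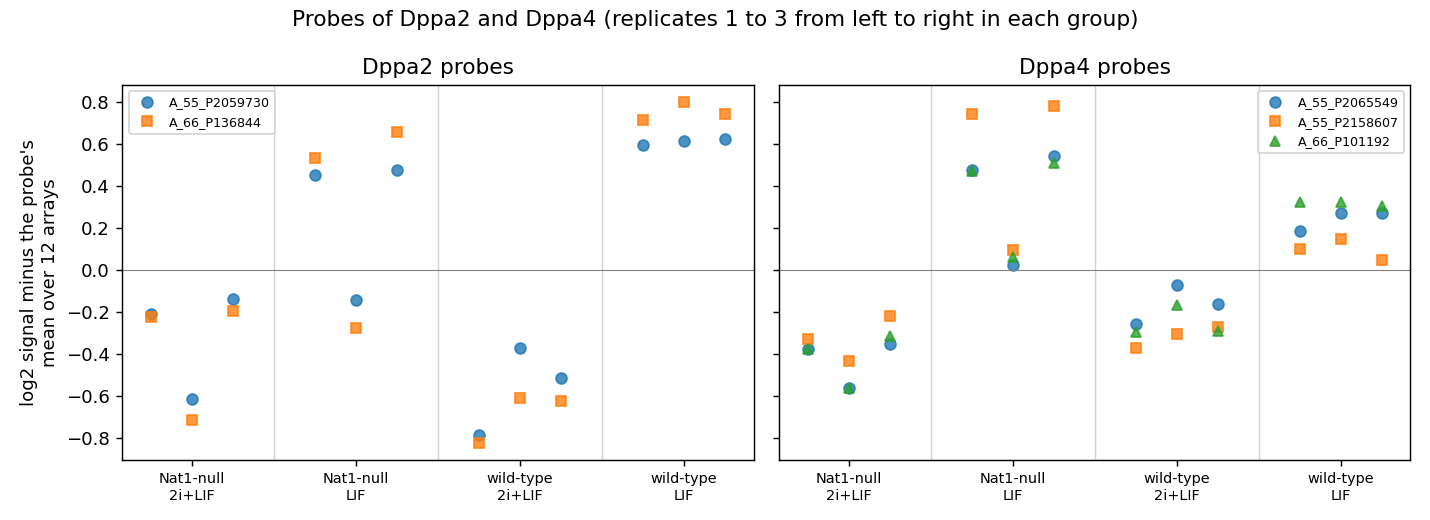
Each probe of Dppa2 (left panel) and Dppa4 (right panel) on the 12 arrays, as log2 signal minus the probe's own mean over the arrays, with replicates 1 to 3 from left to right within a group. All 5 probes put replicate 2 lowest in both Nat1-null groups, and probe A_55_P2158607 of Dppa4 lies above the other probes in Nat1-null LIF.

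Dppa5a had the narrowest range of group means among the members. Its levels were 8.98, 8.87 and 8.95 in Nat1-null 2i+LIF, 8.73, 8.61 and 8.73 in Nat1-null LIF, 8.94, 9.01 and 9.11 in wild-type 2i+LIF, and 8.38, 8.44 and 8.43 in wild-type LIF. The order of the groups was wild-type 2i+LIF, Nat1-null 2i+LIF, Nat1-null LIF and wild-type LIF, and of neighbours in that order the groups in 2i+LIF overlapped. No spot was saturated, with mean signals of 372217, 359753, 338901 and 330848 in the groups as first listed, against a saturation value of 778106 on the lowest array.

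Dppa5a rose with 2i by 0.24 ± 0.06 in Nat1-null cells (SE, limma adjusted p = 0.012), 1.18-fold, and by 0.60 ± 0.06 in wild-type cells (SE, adjusted p = 1.8e-05), 1.52-fold. Loss of Nat1 went with a 1.21-fold higher signal in LIF (log2 difference 0.27 ± 0.06, SE, limma adjusted p = 0.0028), and in 2i+LIF the difference was -0.086 (95% confidence interval -0.22 to 0.05, adjusted p = 0.28). The rise with 2i was the smaller one in Nat1-null cells, by 0.36 ± 0.09 (SE, limma adjusted p = 0.0065). These small differences rest on the scaling: without scaling between arrays the differences were 0.050 in Nat1-null cells (adjusted p = 0.50) and 0.035 in wild-type cells (adjusted p = 0.58), while the median of all genes moved to -0.14 and -0.50, against 0.05 and 0.06 with scaling. Within the second row of the Nat1-null slide the rise was 0.20 (adjusted p = 0.32). The annotation lists 2 pseudogenes of Dppa5 on chromosome 9 and 1 of Dppa3 on the X chromosome, and signal from such copies cannot be told apart here. Dppa1, a gene of the same naming series that is not among the members, was well above background on 0 and on 1 of the 12 arrays with its 2 probes.

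Most tested genes of a list of 2-cell embryo genes and other genes linked to Dppa2 and Dppa4 were lower in Nat1-null cells in LIF. Of 24 listed genes, 19 had a probe and 17 were tested. Over all genes 66.8% passed for Nat1 loss in LIF and 43.6% in 2i+LIF. For 2i the shares were 37.1% in Nat1-null and 62.2% in wild-type cells. In LIF 13 were lower and 2 higher in Nat1-null cells, with a median log2 difference of -4.97 beside 0.02 over all genes, or -3.37 with the 3 genes not above background in Nat1-null cells set at their bound. Zscan4c, a zinc finger gene of the 2-cell embryo, differed by -5.97, Zscan4a by -5.88, Zscan4f by -5.63 and Tcstv3 by -5.46. In 2i+LIF 11 were lower and 2 higher in Nat1-null cells (median -1.37), with Zscan4c at -3.76. With 2i, 6 were higher and 2 lower in Nat1-null cells (median 0.65, or 0.25 with bounds), while 2 were higher and 14 lower in wild-type cells (median -1.44). Tcstv3 rose by 1.12 in Nat1-null cells, where it was well above background on 2 of 3 arrays in each medium, and fell by 3.33 in wild-type cells. The Tcstv3 rise lost its call in some alternatives and kept it in 17 of 21. Larger rises in Nat1-null cells were less stable. Tcstv1, at 1.15, kept its call in 6 of 21 alternatives, and Tmem92, at 1.14, in 9 of 21. These genes are among the 6 counted as higher. Tcstv1 was also dim there, clear of background on only 1 of 3 arrays with 2i and 2 of 3 without. Within the second row of the Nat1-null slide, with its single LIF array, some of the calls with 2i were lost, as were most calls over all genes. In the same wild-type LIF arrays the fibroblast markers were highest and the mean of the embryonic stem cell markers lowest, and their part was not tested.

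With 2i, more of the list rose than fell in Nat1-null cells and more fell than rose in wild-type cells, while Dppa2 and Dppa4 were lower with 2i in both genotypes. For the 2i difference in Nat1-null minus that in wild-type cells, 12 of 17 were higher and 2 lower. The median was 2.38 beside -0.03 over all genes, with Tcstv3 at 4.45, Tcstv1 at 3.92 and Tmem92 at 3.24. No bounds were set for these values, although 3 of the 17 genes had them with 2i in Nat1-null cells. Zfp352, a zinc finger gene, went the other way and was higher in Nat1-null cells in LIF by 3.06, fell with 2i in Nat1-null cells by 1.07 and rose with it in wild-type cells by 1.19. Many members were dim outside wild-type LIF: with only probes well above background on all 12 arrays, 4 were lower in Nat1-null cells in LIF, 5 in 2i+LIF and 6 with 2i in wild-type cells. With that filter 3 were higher and 2 lower with 2i in Nat1-null cells, and 5 had a higher and 2 a lower 2i difference in Nat1-null cells. The Zscan4, Usp17l and Tcstv genes each have near-identical copies, so their probes may read the same transcripts and are not independent.

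**Figure D4:**
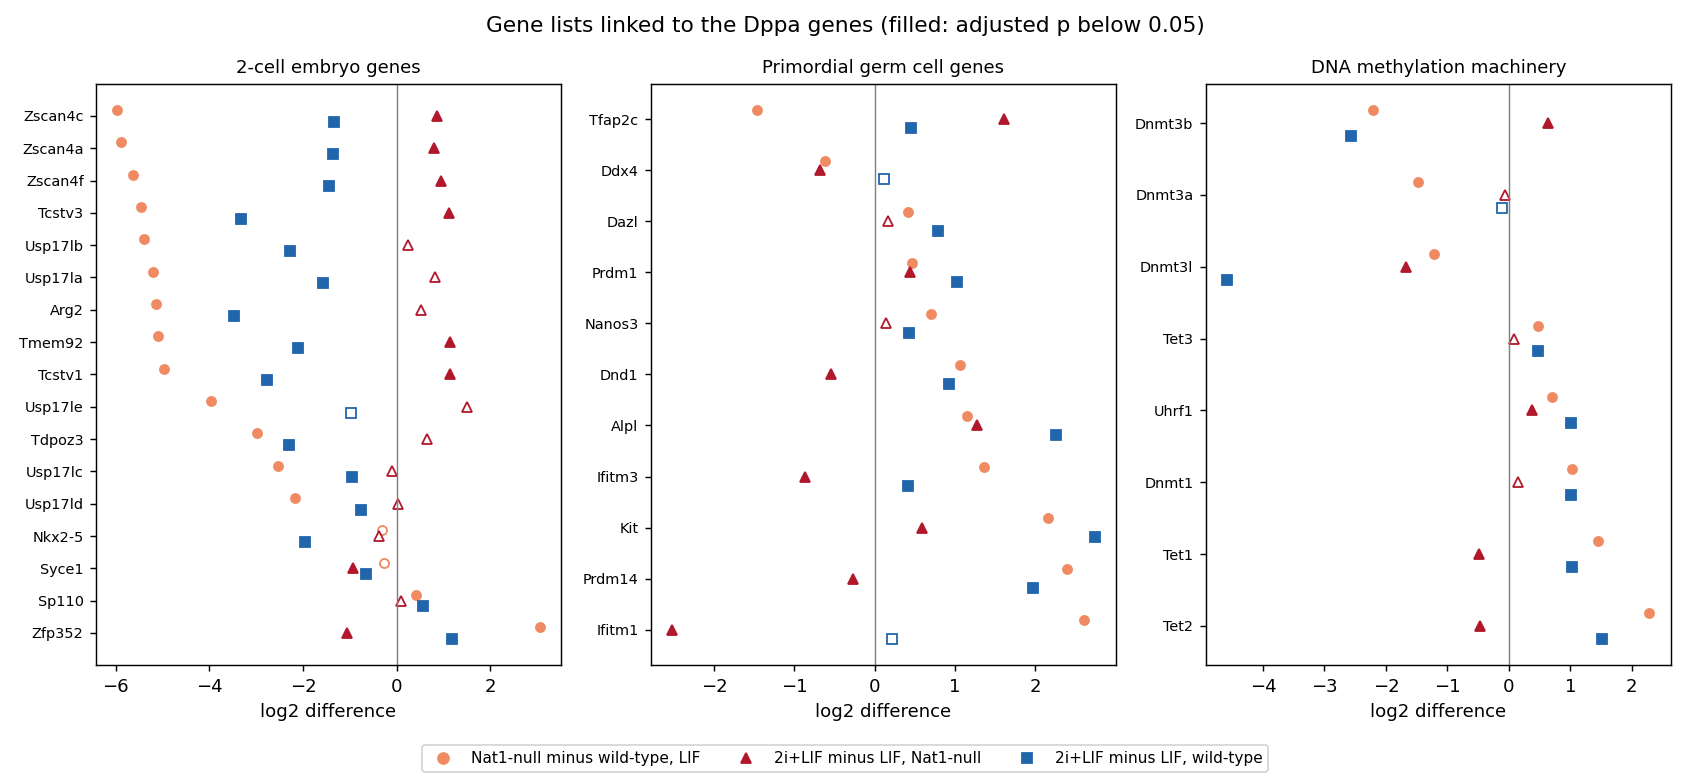
Log2 differences of the tested members of 3 gene lists, with circles for Nat1-null minus wild-type in LIF, triangles for 2i+LIF minus LIF in Nat1-null cells and squares for 2i+LIF minus LIF in wild-type cells; filled symbols have a limma adjusted p below 0.05. In the left panel 13 circles lie below 0 as called changes, down to -5.97 for Zscan4c, and 14 squares do, while most triangles lie above 0.

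Dppa3 lies on chromosome 6 directly between Gdf3 and Nanog (RefSeq, assembly GRCm38.p6), and its neighbours moved in both directions. Of 8 listed neighbours 7 were tested, and with 2i 4 were higher and 1 lower in Nat1-null cells, while 4 were higher and 2 lower in wild-type cells. The counts in Nat1-null cells were 2 and 1 without scaling between arrays. Within the second row of the slide, with its single LIF array, these calls were lost, as were most calls over all genes. Nanog, a transcription factor of the pluripotent state, rose with 2i by 1.99 in wild-type cells, where Dppa3 fell, and was higher in Nat1-null cells in LIF by 1.40, where Dppa3 was lower. The glucose transporter gene Slc2a3 rose with 2i by 0.66 in Nat1-null cells and by 2.15 in wild-type cells. Gdf3, a TGF-beta family ligand, fell with 2i by 0.78 in wild-type cells and was lower in Nat1-null cells in LIF by 0.52, and its 2i difference in Nat1-null cells was -0.10 (limma adjusted p = 0.60). Between genotypes 4 were higher and 3 lower in LIF, and 0 and 3 in 2i+LIF (1 and 1 without scaling between arrays). In Nat1-null cells 3 had a higher and 4 a lower 2i difference. Beside these counts, 37.1% of all genes passed for 2i in Nat1-null cells and 62.2% in wild-type cells. For Nat1 loss 66.8% passed in LIF and 43.6% in 2i+LIF, and 49.7% passed for the dependence on genotype.

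Clec4a1, a C-type lectin gene on the same list of neighbours, rose at least 2.27-fold with 2i in Nat1-null cells and was at least 1.91-fold lower in Nat1-null cells in LIF, the directions of Dppa3. Its 2i difference in wild-type cells was 0.18 (limma adjusted p = 0.61), where Dppa3 fell. Mfap5, a microfibril gene that is the fourth from Dppa3 on the Gdf3 side and outside the list, fell by 0.64 with 2i in Nat1-null cells, fell by 2.48 with 2i in wild-type cells and was lower in Nat1-null cells in LIF by 2.27. Around Dppa2 and Dppa4 2 of 5 listed genes were tested. Nectin3, a cell adhesion gene near Dppa4 that is outside the list, fell with 2i by 0.39 in Nat1-null cells and was lower in Nat1-null cells by 0.28 in LIF and by 0.47 in 2i+LIF. Morc1, the next gene after Dppa2 and a germline factor, was higher in Nat1-null cells in LIF by 1.15 and with 2i in wild-type cells by 0.56, which became -0.0066 without scaling between arrays. Cd47, a cell surface protein, was lower in Nat1-null cells by 1.34 in LIF and by 0.71 in 2i+LIF, where it kept its call in 15 of 20 alternatives.

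Dppa3 acts on DNA methylation, and of the 8 genes of that process that were tested, 2 rose and 3 fell with 2i in Nat1-null cells, and 5 rose and 2 fell in wild-type cells. Within the second row of the Nat1-null slide, with its single LIF array, most of the Nat1-null calls were lost, as they were over all genes. Among the de novo methylation genes, Dnmt3l fell with 2i by 1.67 in Nat1-null cells and by 4.58 in wild-type cells, while Dnmt3b rose by 0.64 in Nat1-null cells and fell by 2.56 in wild-type cells. Dnmt3b therefore shared its directions with Dppa3, and in LIF it was lower in Nat1-null cells by 2.20, but in 2i+LIF it was higher by 1.00, where Dppa3 was not called. Uhrf1, the factor that Dppa3 restrains, rose with 2i by 0.38 in Nat1-null cells and by 1.01 in wild-type cells. Without scaling between arrays 1 of the 8 genes, not 2, rose with 2i in Nat1-null cells, and Dnmt3b kept its call there in 21 of 22 alternatives. The demethylation enzyme genes Tet1 and Tet2 ran against Dppa3, higher in Nat1-null cells in LIF by 1.45 and 2.29, lower with 2i in Nat1-null cells by 0.48 and 0.47 (limma adjusted p = 0.049 for Tet2, which kept that call in 9 of 22 alternatives), and higher with 2i in wild-type cells by 1.02 and 1.52. By genotype 5 were higher and 3 lower in LIF, and 2 and 1 in 2i+LIF (6 and 1 without scaling between arrays). In Nat1-null cells 2 had a higher and 5 a lower 2i difference (2 and 3 without scaling). The all-gene shares were 37.1% and 62.2% for 2i in Nat1-null and wild-type cells. They were 66.8% and 43.6% for Nat1 loss in LIF and 2i+LIF, and 49.7% for the dependence on genotype.

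Dppa3 is also used as a marker of primordial germ cells, and other genes of those cells moved in both directions. Of 11 tested, 4 rose and 5 fell with 2i in Nat1-null cells. Most of these calls were lost within the second row of the slide, with its single LIF array, as they were over all genes. By genotype 9 were higher and 2 lower in Nat1-null cells in LIF. In 2i+LIF 1 was higher and 3 lower in Nat1-null cells (4 and 1 without scaling between arrays). With 2i in wild-type cells 9 rose and 0 fell (5 and 1 without scaling). Prdm14, a transcription factor of germ cell specification, was higher in Nat1-null cells in LIF by 2.39 and rose with 2i by 1.98 in wild-type cells, opposite to Dppa3 both times. Kit, a receptor of germ cells, was higher in Nat1-null cells in LIF by 2.15 and rose with 2i by 2.74 in wild-type cells. Tfap2c was lower in Nat1-null cells in LIF by 1.47 and up with 2i by 1.60 in Nat1-null cells, although it rose with 2i in wild-type cells as well, by 0.45. That wild-type rise depends on the scaling, since the median over all genes was 0.06 with scaling and -0.50 without. Of the 11 genes, 1 had a higher and 9 a lower 2i difference in the null cells, where 49.7% of all genes passed. Shares over all genes were 37.1% and 62.2% for 2i in Nat1-null and wild-type cells. For Nat1 loss they were 66.8% in LIF and 43.6% in 2i+LIF.

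Among 9 other transcripts known for their link to embryonic stem cells, 2 rose and 3 fell with 2i in Nat1-null cells, and 1 rose and 5 fell in wild-type cells (1 and 8 without scaling between arrays). The count of 2 held in 2 of 22 alternatives and was 1 in the others. Between genotypes 4 were higher and 4 lower in LIF and 3 each in 2i+LIF, and 3 had a higher and 2 a lower 2i difference in Nat1-null cells. Without scaling, 6 were higher in 2i+LIF and 6 had a higher 2i difference. Over all genes 37.1% passed for 2i in Nat1-null cells and 62.2% in wild-type cells. The shares were 66.8% and 43.6% for Nat1 loss in LIF and 2i+LIF, and 49.7% for the dependence on genotype. Tdrd12, a tudor-domain gene of the piRNA pathway, had the directions of Dppa3, with a rise of 1.40 with 2i in Nat1-null cells, a fall of 0.64 in wild-type cells and a level lower by 3.51 in Nat1-null cells in LIF, and it was lower in 2i+LIF too, by 1.47. Eras, a Ras-like gene, fell with 2i in Nat1-null cells by 1.53 and was higher in Nat1-null cells in LIF by 1.69. Of the KH-domain relatives of Dppa5a, 2 of 5 were tested, and both were higher in Nat1-null cells in LIF, Ooep by 2.65 and Khdc3 by 2.52, and in 2i+LIF, by 1.12 and 2.23. Ooep and Khdc3 belong to a maternal protein complex of the oocyte. With 2i, Khdc3 fell by 0.64 in Nat1-null cells and by 0.34 in wild-type cells, while Ooep, the neighbour of Dppa5a, rose by 1.46 in wild-type cells.

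The genes whose profiles were nearest to each Dppa gene over the 12 arrays were found by the root mean square difference of log2 levels after each gene was centred on its own mean, among 15424 other genes with a symbol. Nearest to Dppa3 were Fthl17a, a ferritin heavy chain-like gene, at 0.43, Zfp703 at 0.53, Pramel7 at 0.58, and Pramel6 and Lpar6 at 0.61, against a median of 2.39 over all genes. All 5 were highest in wild-type LIF, lowest in Nat1-null LIF and between them in both 2i+LIF groups, and Pramel6 and Pramel7 were not well above background on any Nat1-null LIF array. Nearest to Dppa2 were Elac2, Zscan22, Enc1, Ptpn1 and Gm4285 at 0.12 to 0.16, where the median over all genes was 0.75. Nearest to Dppa4 were Ankrd49, Znhit2, Cdadc1, Nexmif and Hvcn1 at 0.08 to 0.10 (median 0.54), and nearest to Dppa5a were Hsp90ab1, Snrpd1, Rps15, Cox5a and Atp5mpl at 0.05 to 0.06 (median 0.42). These last 5 were all bright, with group means of 6.17 to 9.11. The small Dppa5a differences rest on the scaling, and its part in the shared profile was not tested. Between members, Dppa2 and Dppa4 were 0.34 apart, and Dppa3 was 2.24, 2.39 and 2.51 from Dppa2, Dppa4 and Dppa5a. The measure favours genes with a similar size of change, and with profiles scaled to unit SD 1 of the 5 genes stayed for Dppa2, 0 for Dppa3, 0 for Dppa4 and 2 for Dppa5a.

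**Figure D5:**
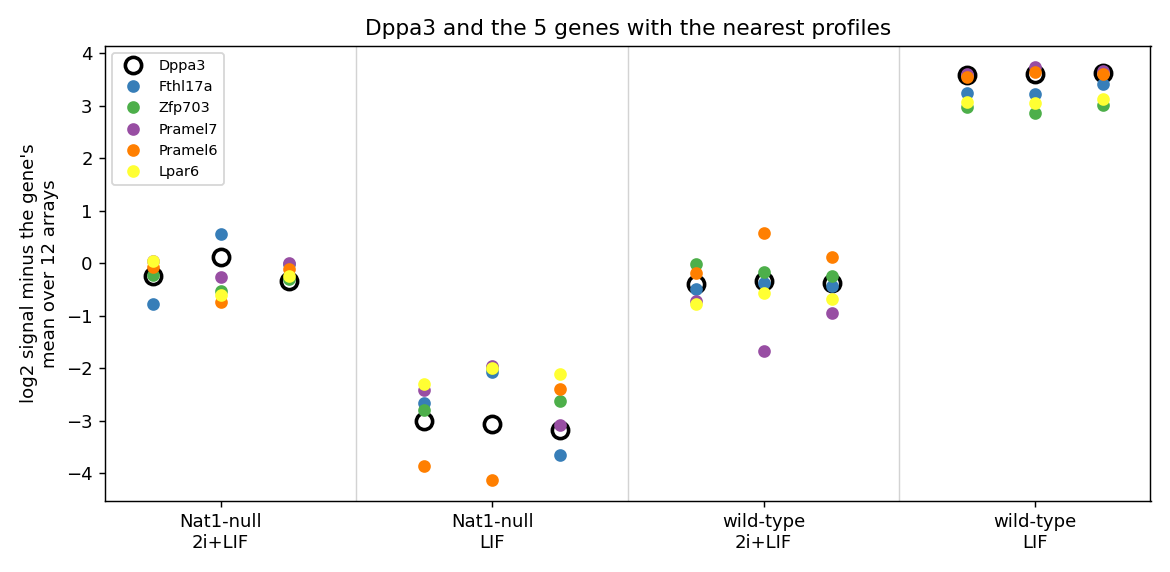
Dppa3 (open circles) and the 5 genes with the nearest profiles on the 12 arrays, as log2 signal minus the gene's mean over the arrays, with replicates 1 to 3 from left to right within a group. All 6 genes are highest in wild-type LIF and lowest in Nat1-null LIF, and lie between these in both 2i+LIF groups.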

How the data were processed

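The deposited intensity values come from Agilent Feature Extraction 10.7.3.1, per the file headers, with background already subtracted. In the series table the authors deposited log2 values of these arrays, which matched the scanner values after scaling to the 75th percentile. Here log2 of the processed signal minus the array's 75th percentile was used, control and outlier spots were dropped, the spots of a probe were averaged, a probe had to be well above background on every array of some group to be kept (33286 of 54229 with a value on all 12 arrays), and the probe with the highest mean stood for a gene. Probes were named through RefSeq accessions (GRCm38.p6, 27656 of 55681 named). limma 3.58.1 in R 4.3.3 fitted 4 group means to all 12 arrays, with two-sided tests and p-values adjusted by Benjamini-Hochberg within each comparison. This procedure was also tested on simulated data. Figures were drawn with matplotlib 3.10.9 in Python 3.11.15 and tables made with pandas 2.3.3.

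Named genes are the 4 Dppa genes and Eif4g2, up to 4 called members per list and comparison with the largest differences, and the 5 nearest profiles, and further values of genes so named are given beside them. Acta2, Dcn, Mfap5, Nectin3, Postn and Uhrf1 were named after their values were seen. The values of 1 listed gene are not reported here, although the list counts include it. Lists overlap in Nanog, Gdf3, Khdc3 and Dnmt3l, and the embryonic stem cell markers share Nanog and Fbxo15 with them. The members and lists were chosen with earlier results of these data known. A gene not well above background on any array of a group has only a bound there, taken from the lowest bright signal of those arrays, or from the gene's own signal if that is higher. Alternatives changed the background (normexp with an offset of 50, on median spot signals, since the mean signals planned for it were not used here), scaling, filter, probes, weights, arrays and blocks. Taken over all groups same-numbered arrays did not pair, since 1 of 18 pairs correlated above 0.1, which was replicates 2 of the Nat1-null groups.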

Additional observations from a re-analysis of the deposited data

Results flagged for a closer look

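For Dppa3 the 2i difference depended on genotype, by 6.90 on the log2 scale for Nat1-null minus wild-type cells, with a rise in Nat1-null cells and a fall in wild-type cells. Without scaling between arrays and in the other alternatives the value stayed between 6.03 and 7.27. Fibroblast markers moved with it in wild-type LIF, and their part in it was not tested.

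For Dppa5a the rise with 2i was the smaller one in Nat1-null cells, with a value of -0.36 on the same scale. Without scaling between arrays it was 0.016 (limma adjusted p = 0.88).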

How the results depend on the processing

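All 4 called Dppa3 differences kept their direction and call in every alternative run, the array row block with its single LIF array included, with values of 2.26 to 3.01 for 2i in Nat1-null cells, -6.83 to -5.86 for Nat1 loss in LIF, -4.55 to -3.77 for 2i in wild-type cells and 6.03 to 7.27 for the dependence on genotype. The causes of the changes below were not tested. Without scaling, Nat1 loss in LIF gave Dppa2 -0.60 (limma adjusted p = 0.029, now called), Dppa4 -0.12 (sign turned) and Dppa5a 0.12 (call lost), Nat1 loss in 2i+LIF gave Dppa3 0.44 (adjusted p = 0.012, now called), Dppa4 0.057 and Dppa5a 0.14 (signs turned), 2i gave Dppa5a 0.050 in Nat1-null and 0.035 in wild-type cells (calls lost), and the dependence on genotype gave Dppa2 1.13 (adjusted p = 0.0094, now called), Dppa4 0.18 and Dppa5a 0.016 (signs turned). Morc1 turned to -0.0066 with 2i in wild-type cells. With quantile normalization, Nat1 loss in LIF gave Dppa2 -0.55 (now called) and Dppa4 -0.093 (sign turned), the Dppa5a rise in Nat1-null cells was 0.041 (call lost) and the Dppa2 dependence 0.76 (adjusted p = 0.049, now called), as it was at 0.80 with normexp (adjusted p = 0.042). Probe A_55_P2158607 alone gave Dppa4 0.44 for Nat1 loss in LIF. With array weights, Dppa2 was 0.39 for Nat1 loss in 2i+LIF and the dependence was 0.65 for Dppa2 and -0.26 for Dppa4, all now called.

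For 2i in Nat1-null cells 9077 genes were called in the main fit. Dppa2 lost its call at -0.68 without a filter (limma adjusted p = 0.069) and with only the arrays compared (adjusted p = 0.16). With only the arrays compared Dppa5a lost its call too, at 0.24, and 4845 genes were called. The array row as a block gave Dppa2 -1.04, Dppa4 -0.93 and Dppa5a 0.20, none called, and 1560 genes called, with fewer arrays behind each value. The replicate number as a block on all arrays changed no call of a Dppa gene and called 8787 genes. With a replicate block on the Nat1-null arrays alone, added after the data were seen, Dppa5a lost its call at 0.24 and 5458 genes were called. Taken over all groups the numbers did not pair the samples, since 1 of 18 same-numbered pairs correlated above 0.1. That pair was replicates 2 of the Nat1-null groups, at 0.30. Between same-numbered Nat1-null arrays the 2i difference of the main Dppa2 probe was -0.76, -0.44 and -0.85 for replicates 1 to 3.

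Leaving out 1 array gave, for Nat1 loss in LIF, -0.62 to -0.16 for Dppa2 and -0.052 to 0.17 for Dppa4, for Dppa3 in 2i+LIF 0.080 to 0.31, for Dppa2 with 2i in Nat1-null cells -0.97 to -0.51, and for the dependence on genotype 0.46 to 0.93 for Dppa2 and -0.34 to -0.11 for Dppa4. Calls or signs changed without Nat1-null LIF replicate 1 (Dppa4 -0.033 in LIF, sign turned), Nat1-null LIF replicate 3 (Dppa2 -0.62 and Dppa4 -0.052 in LIF, Dppa2 0.93 for the dependence), Nat1-null LIF replicate 2 (Dppa4 dependence -0.34), Nat1-null 2i+LIF replicate 2 (Dppa2 dependence 0.92) and Nat1-null 2i+LIF replicate 3 (Dppa3 0.31), and the Dppa2 fall in Nat1-null cells lost its call in 10 of the 12 fits. Of the values of listed genes, list counts and nearest profiles, 3859 were rated the same, 76 lost their call and 1 turned. The rest are counts rated as moved. A count rated the same could still shift: higher Dppa3 neighbours for Nat1 loss in 2i+LIF ran from 0 to 1. Each group has 3 arrays, and dim genes carry bounds, which limits the small differences most.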
